A study of Mus musculus with 2 samples.

Results

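The intronic Rfx6 peaks near gene starts were the peaks of the 3HA-Rfx6 library whose summit lay inside a protein-coding gene, in no coding or UTR segment, and more than 1 kb but at most 10 kb from the nearest start of a protein-coding transcript. There were 3009 such peaks among the 23308 peaks of the library, or 12.9% (95% Wilson interval 12.5% to 13.3%, counting error only). They will be called near-start intronic peaks. The rule used position alone and neither reads nor fold enrichment. The peaks closest to its limits were those of Pdx1 at 998 bp, just outside, Setd7 at 1002 bp, just inside, Lemd2 at 10000 bp, just inside, and D830013O20Rik at 10008 bp, just outside.

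The study mapped where Rfx6 binds the genome of Min6b1, a mouse insulinoma-derived β cell line that was kept in 25 mM glucose. One library came from cells transfected with the plasmid pCMV-Tag2A-3HA-Rfx6, which drives HA-tagged Rfx6 from a viral promoter, and chromatin was precipitated with the HA antibody 12CA5. The other was an HA precipitate from Min6b1 cells that served as the control, and its growth and transfection text is worded like that of the tagged library. Each condition had 1 library, so there was no replicate spread and every test given here describes this library only. The bound protein was the transfected one and not the endogenous factor, and the peak list holds no expression values by which the β cell identity of the line could be checked. The 3HA-Rfx6 library retained 33949757 reads after duplicate removal and the control 3567375, and the control entered only through the peak calling.

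Rfx6 is a winged-helix transcription factor of the regulatory factor X family and is required for the formation and function of pancreatic islet cells. Factors of this family bind the X-box, an imperfect inverted repeat in which a 6-base half-site is followed, after a short spacer, by its reverse complement. Introns close to a gene start often hold enhancers and alternative promoters, and the first intron is usually the longest part of the gene near the start.

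A strict X-box was taken as a half-site GTNRCC, in which R stands for A or G and N for any base, then 0 to 3 bases, then the inverted half-site RGYAAC, in which Y stands for C or T. It was searched on both strands in the 200 bp centred on each summit. The sequences below are strict X-boxes from the near-start intronic peaks with the most reads among those whose X-box centre lay within 25 bp of the summit. Each is 30 bases of the NCBIM37 (mm9) genome, 5′ to 3′, with the X-box in capitals, and the sign in brackets is the strand shown.
Ass1, chr2:31330402-31330431 (+): cctgctgaGTCACCCGGCAACccaggtcca
B3galt5, chr16:96465793-96465822 (+): gcccggctGTTGCCCGGCAACtgtggggtg
Mef2d, chr3:87956221-87956250 (+): aggcgacaGTTGCCTAAGCAACcccatcct
P4htm, chr9:108490394-108490423 (+): acagtgctGTTGCCCAGCAACcagagtatt
Dlg4, chr11:69835410-69835439 (-): gactttgccGTCGCCTAGCAACtgtctccc
Rogdi, chr16:5010757-5010786 (-): ggaaccatgGTCACCTGGCAACaacagaat
Dcp1b, chr6:119151648-119151677 (-): aggaggagGTCACCCAGGGCAACagaggtg
Foxn3, chr12:100578347-100578376 (-): gcgtgatgGTAGCCATAGTAACtggagtgt
Cyb5r3, chr15:82997283-82997312 (+): tggctgaGTAGCCCTGGGCAACtgctttgg

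These peaks held 169 to 268 reads at 13.2-fold to 38.1-fold enrichment. The X-box of B3galt5, a galactosyltransferase, had exactly inverted half-sites around a spacer of 1 base. The X-box of Dlg4, which encodes the synaptic scaffold PSD-95, was centred on the summit itself (offset 0 bp), that of P4htm lay 2 bp from it, and that of Mef2d, a MADS-box transcription factor, 2.5 bp from it. Ass1 encodes argininosuccinate synthase, and its peak of 268 reads lay in intron 2, 4.695 kb downstream of the start. The peak in intron 5 of Dcp1b, an mRNA decapping factor, had 189 reads and lay 5.422 kb upstream of a start of Cacna1c, which encodes an L-type calcium channel subunit. The nearest start thus belonged to a different gene than the intron, as was also the case for P4htm and Foxn3.

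Other near-start intronic peaks with high fold enrichment carried a weaker form of the motif. A relaxed X-box, in which most positions accept either purine or either pyrimidine and the spacer is 1 to 3 bases, is shown for 4 of the 10 peaks with the highest fold enrichment and for the smaller of both Cacnb2 peaks. The larger Cacnb2 peak held neither form of X-box in the 200 bp at its summit. The last sequence is a strict X-box of Pfkfb2, the only strict match at the best peak of any gene of the metabolic list described below.
Dgkz, chr2:91793939-91793968 (+): tgctcacaGCTGCCCAGACAACcaccaact
Paqr5, chr9:61815176-61815205 (+): cctggaagGTTTCCTAAGCAACcgaggaag
Arvcf, chr16:18400969-18400998 (+): aggcagttATTTCCATGACAACtgtagggc
Dnmt3a, chr12:3887736-3887765 (+): ctctgactGTTTCCTTAGCAACaagtcctg
Cacnb2, chr2:14797379-14797408 (-): aagccgccATTCCCATAGCAACacacatag
Pfkfb2, chr1:132602227-132602256 (+): cctgtcctGTGACCCTGGCAACcaagacag

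The boxes of Dgkz and Arvcf lay 0.5 bp from the summit, that of Paqr5 1.5 bp from it and that of Cacnb2 4.5 bp. Dnmt3a encodes a de novo DNA methyltransferase, and Dgkz a diacylglycerol kinase.

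Near-start introns held more peaks per length than introns farther away. The 3009 peaks lay in 207 Mb of intron sequence, or 14.5 peaks per Mb (14.0 to 15.1, exact Poisson interval). Introns more than 10 kb from a start held 8.66 peaks per Mb (8.44 to 8.89), so the density ratio was 1.68 (1.60 to 1.75). Intergenic sequence at the same distance of 1 to 10 kb held 10.6 per Mb (10.1 to 11.1), a ratio of 1.37 (1.29 to 1.46). Sequence within 1 kb of a start, referred to as promoters, held 83.2 peaks per Mb, so near-start introns reached 0.175 of the promoter density (0.167 to 0.183). Position is what defined the groups, so these ratios are descriptions without a test.

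The excess over intergenic sequence was greatest next to the start. At 1 to 2 kb, introns held 20.4 peaks per Mb (18.8 to 22.1) and intergenic sequence 12.4 (10.9 to 14.0). At 2 to 3 kb the values were 16.3 and 11.5, and at 3 to 4 kb 14.6 and 12.0, where the intervals overlapped. At 8 to 10 kb introns held 11.8 (10.7 to 13.0) and intergenic sequence 9.51 (8.49 to 10.6). Beyond the upper limit, the intronic density was 11.9 at 10 to 20 kb and 10.2 at 20 to 50 kb. The limit of 10 kb therefore cut a gradual decline and no step.

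**Figure D1:**
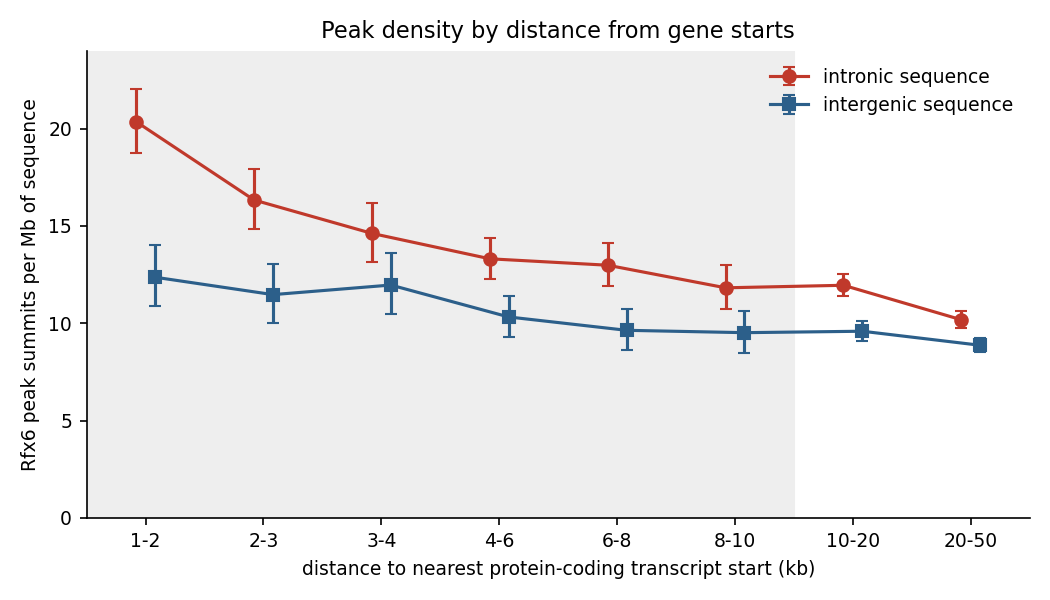
Rfx6 peak summits per Mb of intronic sequence (circles) and intergenic sequence (squares) against distance from the nearest protein-coding transcript start in kb, with exact 95% Poisson intervals as bars and the range of the near-start peaks shaded. Intronic density was 20.4 per Mb at 1 to 2 kb and 11.8 at 8 to 10 kb, and it lay above the intergenic value in each bin drawn.

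Introns were numbered in the host gene's transcript with the closest start among those holding the summit in an intron. This choice favours low intron numbers, and such a transcript can begin inside the gene. An intron could be assigned to 2975 of the 3009 peaks. Of these, 1667 (56.0%, 54.2% to 57.8%) lay in intron 1, 519 (17.4%) in intron 2, 235 (7.90%) in intron 3 and 554 (18.6%) in a later one. These shares were not set against the share of near-start sequence that each intron holds. The intron had a median length of 8884 bp, and the summit lay a median of 1676 bp from the closest exon. Within 500 bp of an exon were 678 peaks (22.8%). The median distance from the start was 4.275 kb, with quartiles of 2.317 and 6.779 kb. The summit lay downstream of the nearest start in 2276 peaks (75.6%) and upstream of it in 733 (24.4%), the latter being summits in front of a start inside the gene or of a neighbour. In 2719 peaks (90.4%) the nearest start belonged to a gene that held the summit. For 230 peaks (7.64%) a start of a transcript of some other type lay within 1 kb, and 80 (2.66%) lay in an exon of a transcript annotated as not coding.

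Neighbouring summits were frequent. Another Rfx6 summit lay within 5 kb of 1257 near-start intronic peaks (41.8%, 40.0% to 43.5%), against 29.6% of intronic peaks beyond 10 kb, 38.3% of near-start intergenic peaks and 24.3% of promoter peaks. Among the 18712 protein-coding genes with intron sequence 1 to 10 kb from a start, 2265 held at least 1 such peak, a background of 12.1%. One peak was found in 1766 genes, 2 in 337 and 3 or more in 162. A promoter peak was present in 959 of the 2265 genes with a near-start intronic peak (42.3%, 40.3% to 44.4%) and in 3821 of the other 16447 genes (23.2%, 22.6% to 23.9%). Genes differ in length and in the number of starts, and the part of these in the difference was not tested.

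The counts above let a peak count for each gene that contains it, and the highest number in a gene was then 69. When each peak was assigned instead to 1 host, the containing gene with the closest start, 2227 genes were hosts, and among those with the most peaks were Gm20388 with 26, Mcf2l with 11, Dlgap4 with 9 and Plch2 with 8. Gm20388 is a gene model that spans 4435 kb of chromosome 8, so its peaks were nearest to starts of other genes, among them Foxf1a, Jph3, Cbfa2t3 and Usp10. Mcf2l encodes a guanine nucleotide exchange factor, and its 11 peaks had 46 to 241 reads. The 9 peaks of Dlgap4, a postsynaptic density protein, had 38 to 286 reads. Plch2, a phospholipase C, held 8 peaks of 38 to 633 reads, so strong and weak summits stood side by side in 1 gene.

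In reads and fold enrichment, near-start intronic peaks were close to the typical peak of the library. They held 26 to 1193 reads with a median of 73 and quartiles of 51 and 115, and the median over all 23308 peaks was also 73. The fold enrichment, the ratio of the reads in a peak to the background that the peak caller expected there, ran from 3.26 to 65.9 with a median of 8.53, against 8.54 over all peaks. The peak caller's FDR had a median of 3.06% and a maximum of 25.3%. The maximum was seen at peaks with many reads, among them Itgam, which held 1193. The groups compared with were 4902 promoter peaks, 5961 intronic peaks beyond 10 kb and 1740 near-start intergenic peaks. The shares of peaks above the library's median were compared by Fisher's exact test, two-sided, with Benjamini-Hochberg adjustment over the 12 comparisons of 4 measures with 3 groups.

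Promoter peaks held more reads. Above the median of 73 reads were 49.6% of near-start intronic peaks and 56.4% of promoter peaks, a difference of -6.82 percentage points (95% interval -9.08 to -4.56, adjusted p = 1.44e-08 by Fisher's exact test). Against intronic peaks beyond 10 kb, of which 46.4% were above it, the difference was 3.17 points (0.977 to 5.35, adjusted p = 0.0115, Fisher's exact test). The latter difference was 1.27 points when reads were divided by peak length (adjusted p = 0.451) and 2.63 points when the lower limit was 2 kb (adjusted p = 0.0889, both Fisher's exact test), so it was not called under either. Against near-start intergenic peaks it was 2.06 points (-0.895 to 5.00, adjusted p = 0.294, Fisher's exact test). In fold enrichment no comparison passed with the settings used throughout. The difference was -2.55 points from promoter peaks (-4.82 to -0.286, adjusted p = 0.0555), 1.12 points from intronic peaks beyond 10 kb (-1.07 to 3.31, adjusted p = 0.433) and -0.192 points from near-start intergenic peaks (-3.14 to 2.76, adjusted p = 1), each by Fisher's exact test. The difference from promoter peaks was called with 1 peak per gene (-3.85 points, adjusted p = 0.00722), with peak midpoints (-2.73 points, adjusted p = 0.0371) and with the peak caller's score in place of the fold enrichment (-7.35 points, adjusted p = 8.49e-10), and that from intronic peaks beyond 10 kb with the score (2.88 points, adjusted p = 0.0173), each by Fisher's exact test.

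**Figure D2:**
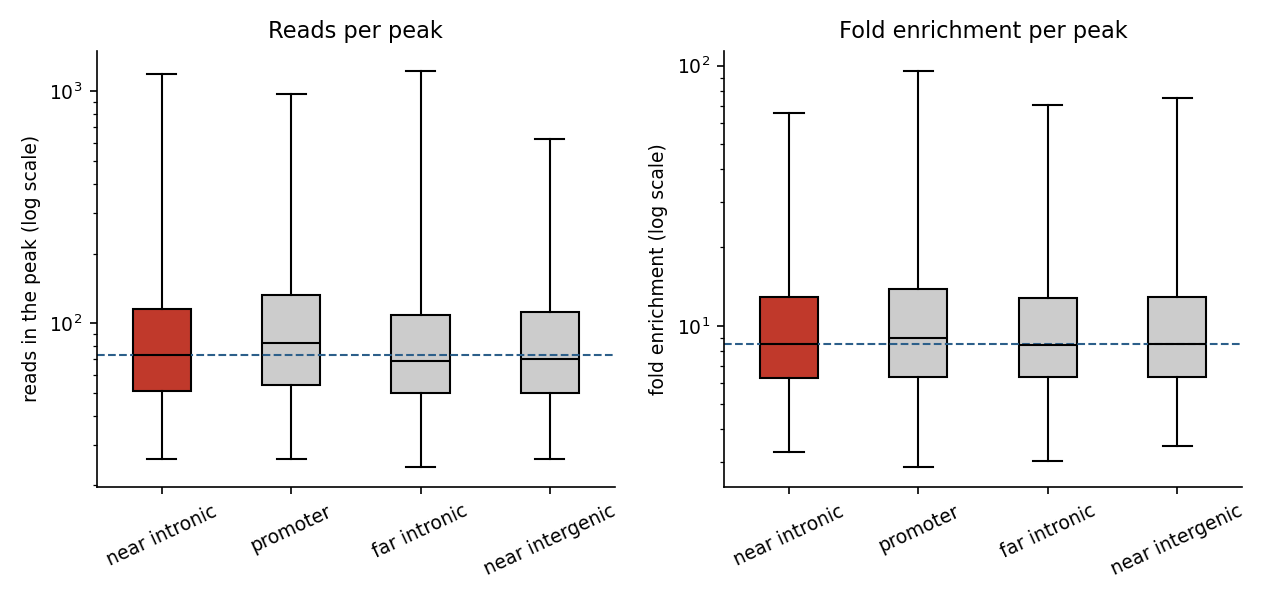
Reads per peak (left) and fold enrichment per peak (right), both on log axes, for 3009 near-start intronic, 4902 promoter, 5961 far intronic and 1740 near-start intergenic peaks. Boxes span the quartiles with the median as a line, whiskers reach the lowest and highest peak, and the dashed line is the median of all peaks. The median reads were 73, 82, 69 and 70 and the boxes overlapped widely.

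The near-start intronic peak with the most reads lay in Itgam, the integrin αM chain of macrophages and neutrophils, with 1193 reads at 47.6-fold enrichment, 2.568 kb from the start on chromosome 7. It was followed by 4930572J05Rik with 887 reads, Mier2 with 647, Plch2 with 633, Mboat7 with 604, Klhl29 with 583, Kcp with 579, Apbb1 with 562, Gm20388 with 562 near Cbfa2t3, and Il6st, the gp130 subunit of interleukin 6 family receptors, with 504. The peak caller's FDR was 25.3% for each of these 10 peaks except Kcp, where it was 20.75%. The median over all near-start intronic peaks was 3.06%, so this FDR was not lower at the peaks with the most reads. No strict X-box lay within 100 bp of 9 of these 10 summits, and the exception was the peak near Cbfa2t3, whose X-box was 67 bp away. The highest fold enrichment was that of Apbb1, which encodes an amyloid precursor protein binding adaptor, at 65.9. E030010N08Rik reached 62.6, Dgkz 57.0, Paqr5 56.9, Prrg2 52.7, Plch2 49.0, Arvcf 48.0, Dnmt3a 47.8, Itgam 47.6 and Ripk4 47.1. Apbb1, Plch2 and Itgam were thus in both sets of 10. In the set with the highest fold enrichment the FDR ran from 8.24% for Ripk4 to 25.3%.

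Both Itgam and Il6st had their summit in repeated sequence, of which 30 bases at each summit are shown. Capitals mark a half-site, and Itgam had none.
Itgam, chr7:135262503-135262532 (+): cccgggagacagtgataatacacacctggg
Il6st, chr13:113268206-113268235 (+): ttggggaggttgGTTGCCagggcagagatg

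Some 10-base word occurred 6 times without overlap in the 200 bp at the Itgam summit and 4 times in those at Il6st, where 4 copies of the half-site were present. This feature was looked at after the sequences had been seen. A 10-base word present at least 3 times was found at 105 of the 3009 near-start intronic peaks (3.49%, 2.89% to 4.21%). The share was 0.938% in promoter peaks, 5.69% in intronic peaks beyond 10 kb and 4.20% in near-start intergenic peaks. Within the near-start intronic peaks it was 1.99% in the lowest 20% by fold enrichment and 6.81% in the highest 20%. Without these 105 peaks, 5.89% (5.09% to 6.80%) of the summits held a strict X-box, against 5.78% with them.

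X-boxes were concentrated at the summits. A strict X-box lay in the 200 bp at the summit of 174 of the 3009 near-start intronic peaks (5.78%, 5.00% to 6.67%) and in the 200 bp centred 1 kb to the right of 9 (0.299%, 0.157% to 0.568%), which is 19.3 times as often. In 173 peaks only the summit window held an X-box and in 8 only the flanking window did (exact McNemar test, two-sided, p = 1.67e-41). To the left, 11 windows held one (0.366%). The relaxed X-box was found at 45.8% of summits and in 22.5% of right flanks. The X-box centre lay within 10 bp of the summit in 48 of the 174 peaks, within 25 bp in 96 and within 50 bp in 134, at a median of 23 bp. The spacer was 1 base in 84 peaks, 2 bases in 75, 3 bases in 12 and 0 in 3. The half-sites were exact inverses of each other in 26 of the 174, and 7 X-boxes read the same on both strands.

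**Figure D3:**
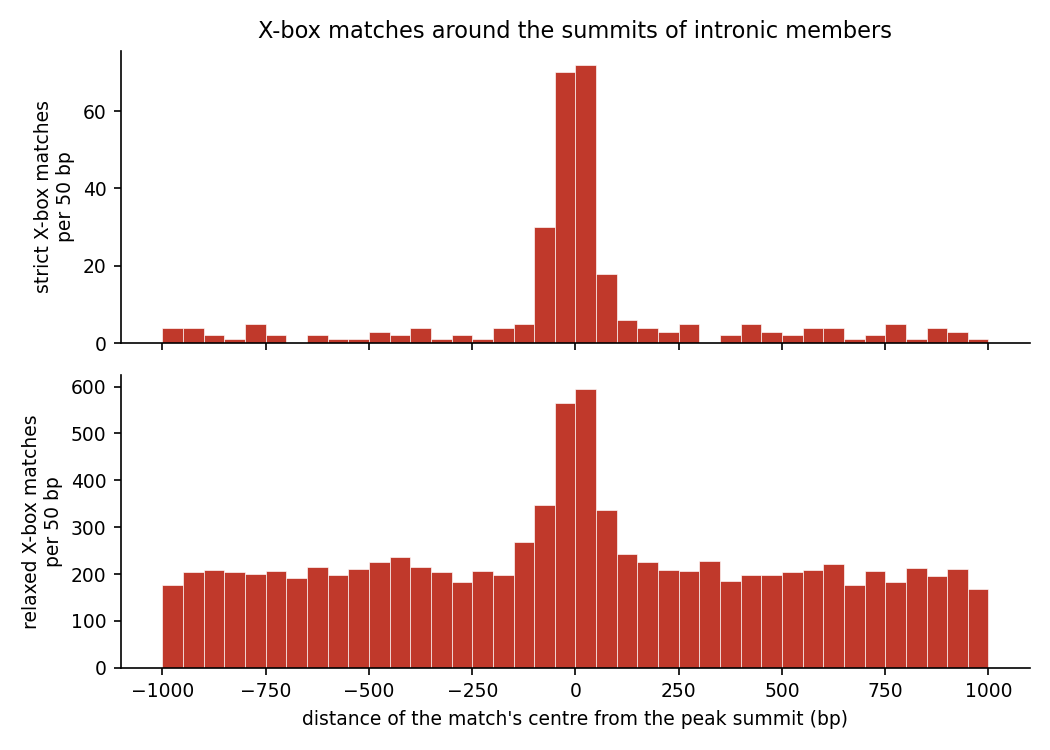
Matches to the strict X-box (top) and the relaxed X-box (bottom) per 50 bp within 1000 bp of the summits of the 3009 near-start intronic peaks. There were 70 and 72 strict matches in the 50 bp on either side of the summit, and 564 and 594 relaxed matches, above a level of about 200 relaxed matches in the outer bins.

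The X-box share did not differ detectably from that of other peaks. It was 5.75% in promoter peaks, a difference of 0.0299 points (-1.01 to 1.11, adjusted p = 1), 6.49% in intronic peaks beyond 10 kb, a difference of -0.710 points (-1.73 to 0.364, adjusted p = 0.294), and 5.75% in near-start intergenic peaks, a difference of 0.0355 points (-1.39 to 1.37, adjusted p = 1), each by Fisher's exact test. The intervals leave room for differences of up to 1.73 points. The difference from intronic peaks beyond 10 kb was called with an upper limit of 5 kb (-1.58 points, adjusted p = 0.0264) and with 1 peak per gene (-1.70 points, adjusted p = 0.0315, both Fisher's exact test). The relaxed X-box was more frequent than in promoter peaks, by 6.11 points (45.8% against 39.7%, adjusted p = 2.49e-07, Fisher's exact test).

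Peaks with a higher fold enrichment more often held the motif. When the near-start intronic peaks were ordered by fold enrichment and divided into 5 sets of equal size, the strict X-box share was 2.66%, 3.16%, 6.16%, 8.80% and 8.14% from the lowest to the highest set (1.64% to 4.27% in the lowest and 6.21% to 10.6% in the highest), while the flank share was at most 0.666%. A relaxed X-box within 25 bp of the summit was present in 14.1%, 19.3%, 23.1%, 24.3% and 28.1%. Single half-sites, GTTGCC or GTTGCT on either strand, showed the same order at the ends. At least 1 lay at the summit of 1558 of the 3009 peaks (51.8%, 50.0% to 53.6%), against 17.6% of right and 16.4% of left flanks. The share was 40.4% in the lowest set and 60.1% in the highest, and at least 2 half-sites lay at 8.47% and 24.6% of summits, respectively. Promoter peaks held a half-site at 40.9% of summits, intronic peaks beyond 10 kb at 53.1% and near-start intergenic peaks at 51.6%. Neither a half-site nor an X-box of either form was present at 933 near-start intronic peaks (31.0%), whose median fold enrichment was 7.77 against 8.94 in the other 2076.

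**Figure D4:**
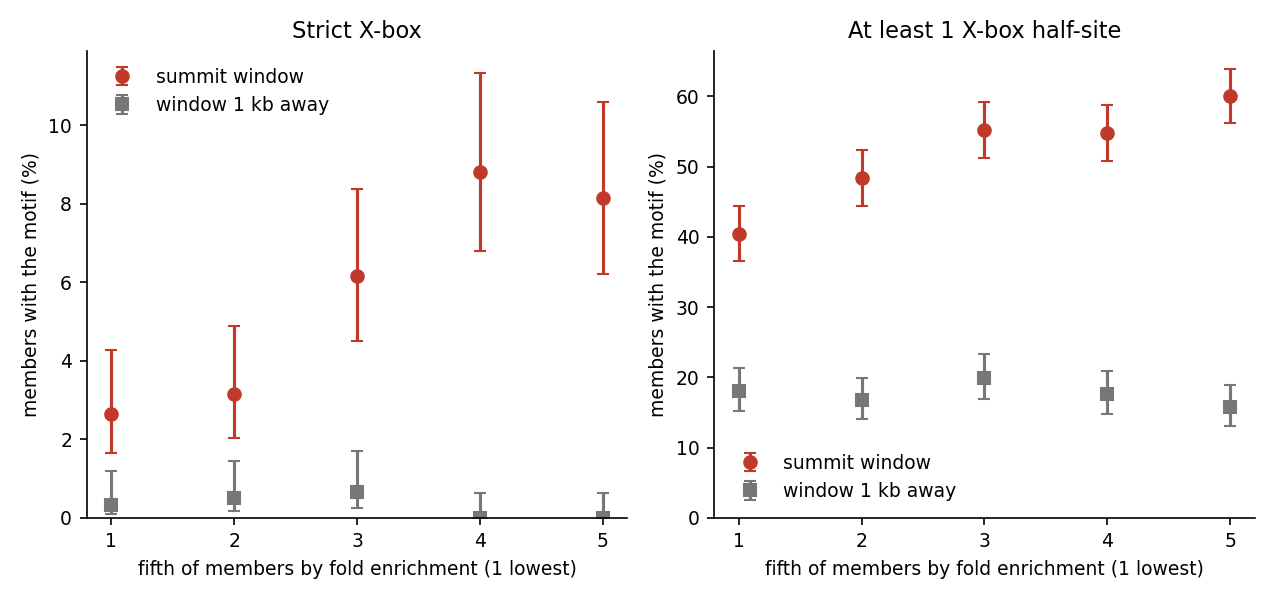
Share of near-start intronic peaks with a strict X-box (left) and with at least 1 half-site (right), in percent, for 5 sets ordered by fold enrichment, in the 200 bp at the summit (circles) and 1 kb to the right (squares), with 95% Wilson intervals. The strict share was 2.66% in the lowest set and 8.14% in the highest, and the half-site share 40.4% and 60.1%.

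Words of 7 bases were ranked by their share at the summits against both flanks, among the 3287 present in at least 2% of the near-start intronic peaks. The first was GTTGCTA, in 13.0% of summits and 1.65% of flanks (a ratio of 7.88), followed by GGCAACC with 9.77% and 1.58% and GTTGCCA with 13.1% and 2.24%. Of the 20 highest, 16 held GTTGC on one strand or the other. The motif letters were otherwise searched on both strands from a list. The half-site GTTGCC was found at 27.6% of summits and 6.75% of flanks, and GTTGCT at 31.9% and 10.9%. In promoter peaks these shares at the summit were 23.2% and 22.1%.

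Motifs of other factors differed less between summits and flanks. The E-box CAGCTG, bound by basic helix-loop-helix factors, was present at 19.3% of summits and 12.5% of flanks, and CAGATG, the E-box form of NeuroD1, at 17.5% and 16.0%. The nuclear factor I half-site TTGGCA, which shares 4 bases with GGCAAC, was found at 14.4% and 10.0%. The forkhead forms TGTTTGC and TGTTTAC were found at 4.79% and 2.99% of summits and at 3.29% and 2.19% of flanks. The homeobox site TAATTA was less frequent at summits than in flanks, 2.09% against 3.76%. Over all peaks, CAGCTG was present at 17.9% of summits, CAGATG at 16.1%, TTGGCA at 13.2%, TGTTTGC at 3.88%, TGTTTAC at 2.45% and TAATTA at 2.02%. The GC box GGGCGG, frequent at promoters, was found at 5.28% of near-start intronic summits and 34.0% of promoter summits. These shares are descriptions, and a match of the letters is no evidence of binding by the factor.

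Near-start intronic peaks did not share the base composition of promoters. A CpG observed to expected ratio of at least 0.6 in the 200 bp at the summit, called CpG-rich, was seen in 117 of the 3009 (3.89%, 3.25% to 4.64%) and in 3083 of the 4902 promoter peaks (62.9%). The difference was -59.0 points (-60.5 to -57.4) with an odds ratio of 0.0239 in Fisher's exact test, whose p was too small for the program to represent. CpG-rich were 1.59% of intronic peaks beyond 10 kb, a difference of 2.29 points (1.57 to 3.10, adjusted p = 4.35e-10), and 7.53% of near-start intergenic peaks, a difference of -3.64 points (-5.12 to -2.27, adjusted p = 3.11e-07, both Fisher's exact test). The excess over farther introns came from the bin next to the start, where 11.9% of the peaks at 1 to 2 kb were CpG-rich, against 3.15% at 2 to 3 kb and 1.35% to 1.78% in the bins up to 10 kb. With a lower limit of 2 kb the difference was 0.313 points (adjusted p = 0.524, Fisher's exact test). The median GC content was 53.5%, and 64.5% in promoter peaks.

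Genes of pathways that matter in β cells were then examined by list. The background for each count is the 12.1% of all 18712 genes, with 8.796 kb of near-start intron at the median gene and 14.5 peaks per Mb overall. The lists and members were chosen with earlier results of these data known, so the counts are descriptions without a test. A list gene counted when a near-start intronic peak lay inside it.

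Ion channels and the secretory machinery came first. In the insulin secretion list 5 of 22 genes held a peak (17.7 peaks per Mb). Cacnb2, the β2 subunit of voltage-gated calcium channels, held 2, with 304 reads at 30.5-fold enrichment 3.710 kb from a start and 136 reads at 14.1-fold 1.951 kb from another. The larger of these was assigned to intron 1 and had 2 half-sites and neither form of X-box within 100 bp. The paper describes Rfx6 binding to intron 1 X-boxes of both Cacnb2 and Cacna1c. The best Cacna1c peak was also assigned to intron 1, with a relaxed X-box 33 bp from the summit. Whether these 2 peaks are the paper's sites was not determined. Abcc8, the sulfonylurea receptor of the ATP-sensitive potassium channel, held 1 peak of 176 reads at 28.0-fold in intron 3, 4.738 kb downstream of its start, with 1 half-site and neither form of X-box within 100 bp. The paper places the Abcc8 site it describes, with an X-box, in a later intron, so these values are not those of that site. The L-type channel genes Cacna1d and Cacna1c had best peaks of 74 and 69 reads at 12.2-fold and 6.83-fold, and Itpr3, an inositol trisphosphate receptor, 53 reads at 5.39-fold. The Cacna1c and Itpr3 peaks were below the median of 73 reads of all near-start intronic peaks.

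In the exocytosis and granule list 7 of 26 genes held a peak (23.7 per Mb). Ptprn2, a granule membrane phosphatase homologue, had 255 reads at 23.1-fold, and Chga, the granule protein chromogranin A, 211 reads at 17.4-fold. The prohormone convertase gene Pcsk2 had 81 reads at 6.83-fold. Rab27a, Rph3al and Cadps had 60 to 66 reads. The peaks of Ptprn2 and Chga were both above the third quartile of 115 reads.

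Potassium channels had the highest share of genes among the lists, 11 of 29 (35.8 per Mb). The median gene of the list held 9 kb of near-start intron, against 8.796 kb in the background. The part of intron length in the share was not tested. Kcnn1, a small-conductance calcium-activated channel, had 227 reads at 10.1-fold 1.415 kb from its start. Lower values were seen elsewhere in the list, with 99 reads for Kcnj6, 92 for Kcnh2, 85 for Kcnn3, 75 for Kcnc4, and 37 to 70 for Kcnd3, Kcnh6, Kcnj12, Kcnt1 and Kcna2.

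Islet transcription factors were at the background in the share of genes. A near-start intronic peak was present in 3 of 25 genes (12.0%). The density was 7.74 per Mb against 14.5 in all near-start introns, but it rests on 3 peaks and was not tested. Rfx3, the family member that controls ciliary genes, had 74 reads at 13.2-fold with 2 half-sites at the summit and a relaxed X-box 26 bp from it, Prox1 46 reads at 5.18-fold and Gata4 36 reads at 4.47-fold. The peak of Pdx1 mentioned above lay 998 bp from its start and was a promoter peak. The primary cilium list, which holds known targets of the family, had 3 of 28 genes (10.7%, 6.74 per Mb), with 119 reads for Ift140, 111 for Ift57 and 91 for Tulp3. This density likewise rests on 3 peaks.

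The Wnt, TGF-beta and cAMP signalling lists came next, with a peak in 24.2% to 35.7% of genes against 12.1% in the background. In Wnt signalling 10 of 28 genes held a peak (29.1 per Mb), led by the ligand gene Wnt7b with 188 reads at 12.5-fold and the inhibitor gene Nkd1 with 183 reads at 27.3-fold. The transcriptional corepressor gene Tle4 had 127 reads and the co-receptor gene Lrp6 76. In TGF-beta and SMAD signalling 8 of 29 did (23.6 per Mb). Smad3, the receptor-regulated signal transducer, held 4 peaks of 133, 120, 95 and 31 reads at 19.3-fold, 16.0-fold, 7.53-fold and 4.24-fold. The corepressor gene Ski had 94 reads, the activin receptor gene Acvr2b 91 and the ligand gene Bmp7 72. Bmpr1b, with 60 reads, was the gene of this list whose best peak held a strict X-box. In cAMP signalling 8 of 33 genes held a peak, with 113 reads at 17.2-fold for the phosphodiesterase gene Pde4d, 87 for the adenylate cyclase gene Adcy9 and 79 for Pde4b. The list held 11.0 peaks per Mb, below the overall 14.5, with a median of 13.801 kb of near-start intron per gene.

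The remaining lists were metabolic, insulin receptor, matrix and disallowed genes, the latter being genes kept silent in β cells. In glycolysis and the citric acid cycle 4 of 33 genes held a peak (12.1%, 13.8 per Mb). Among them were Aldoa with 234 reads at 25.8-fold, Pfkfb2 with 105 at 13.9-fold and Pkm2 with 95 at 6.81-fold. In insulin receptor signalling 7 of 34 did (19.8 per Mb), among them the substrate gene Irs2 with 192 reads, the kinase genes Akt1 with 178 and Akt2 with 83, and Rptor, a subunit of the mTOR complex, with 143. In actin, adhesion and collagen 11 of 35 did (19.4 per Mb). Col1a1 had 427 reads at an enrichment of 5.39-fold, a fold enrichment below the lower quartile of 6.29 for a peak among the highest in reads. Lama3 had 152 reads at 19.1-fold and Col4a2 124 at 12.7-fold. The disallowed list held only the 11 genes common to the earlier studies that the paper cites, a part of the disallowed genes it counts. Of these 11, Smad3 and Oat, which encodes ornithine aminotransferase, held a peak, Oat with 45 reads at 6.83-fold. The list held 39.7 peaks per Mb, the highest density of the 12 lists, from 5 peaks of which 4 lay in Smad3.

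**Figure D5:**
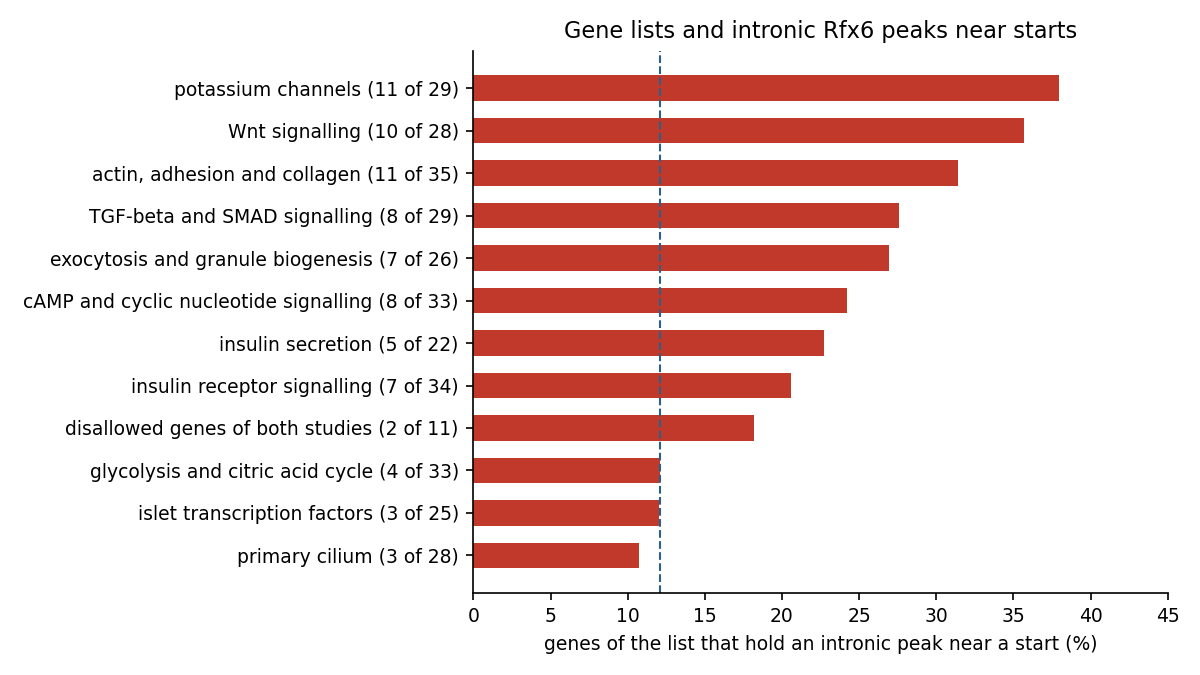
Percent of the genes of each list that hold a near-start intronic Rfx6 peak, among genes with intron sequence 1 to 10 kb from a start (counts in brackets). The dashed line is the background of 12.1% over 18712 genes. Potassium channels (11 of 29) and Wnt signalling (10 of 28) were highest, and islet transcription factors (3 of 25), glycolysis and citric acid cycle (4 of 33) and primary cilium (3 of 28) lay near the line.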

How the data were processed

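Anti-HA ChIP-seq was made from Min6b1 cells, with 1 library of 3HA-Rfx6 transfected cells and 1 control library. Per the submitters' processing notes, CASAVA 1.8.2, Bowtie and MACS 1.4.2 were used with mm9. The file headers give 49443917 reads for 3HA-Rfx6 and 16911298 for the control, of which 33949757 and 3567375 were retained with at most 1 read per position, and a p-value cutoff of 1.00e-05. The authors deposited, for each peak, the count of reads without normalization, the fold enrichment (a ratio to the expected background), a score (−10 log10 p) and the FDR in percent. The control retained fewer reads than the 3HA-Rfx6 library by a factor of 9.52.

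Summits (start plus summit offset minus 1) were placed on NCBIM37 with the GENCODE M1 annotation. Base composition, X-boxes and motifs were read from 200 bp at the summit and 1 kb to either side. Territories counted only sequenced bases. Shares have 95% Wilson intervals, densities exact Poisson intervals, and differences of shares 95% Newcombe intervals, all of which cover counting error only. Fisher's exact tests, two-sided, were adjusted over 12 comparisons, and the paired windows were compared by McNemar's exact test. Peaks of 1 library are not replicates, so p-values describe this library. The peak members and gene lists were chosen with earlier results of these data known. Genes were named as hosts of the 10 peaks with the most reads, the 10 with the highest fold enrichment, the 10 strict X-box peaks with the most reads within 25 bp of the summit, the 5 genes with the most peaks, the 4 highest of each list, and the genes the study connects with the ChIP-seq. Further list genes were named with their reads after their values were seen. Some genes that this rule names are not reported here. Pkm was matched as Pkm2, and Pc was not used here. Tests and intervals came from scipy 1.17.1 and figures from matplotlib 3.10.9, under Python 3.11.15 with pandas 2.3.3 and numpy 2.4.6. The motif search, the placement of summits and the tests were tested on simulated data. The alternatives were other starts, limits, positions, windows, peak sets, X-box patterns and strength measures, and 1 peak per gene. Starts of all transcripts of protein-coding genes and the omission of Gm20388 were added after seeing the data.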

Additional observations from a re-analysis of the deposited data

How the results depend on the processing

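The strict X-box at summits against flanks and the CpG-rich shares against promoter and near-start intergenic peaks kept direction and call under each alternative run. No paired analysis was possible because each condition had 1 library, which also precluded runs without single replicates. Under the alternatives 118 values kept direction and side of the threshold, or moved little where there was no test. Of the others, 20 changed sign, 7 gained a call, 3 lost one, and 8 shares and ratios without a test moved but kept their direction. The cause was not tested.

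The member share of 12.9% was 12.1% with starts of the host gene only, 7.50% with an upper limit of 5 kb, 10.3% with a lower limit of 2 kb, 16.5% with starts of all gene types and 15.2% with starts of all transcripts of protein-coding genes. The density ratio of 1.68 was 1.80 with the 5 kb limit, 1.57 with the 2 kb limit and 1.78 in the 50% of peaks with the highest scores. Calls lost were the reads share against farther introns (2.63 points with the 2 kb limit, 1.27 with reads per kb) and the CpG-rich share against them (0.313 with the 2 kb limit). Calls gained were the fold share against promoters (-2.73 with midpoints, -7.35 with scores, -3.85 with 1 peak per gene), the fold share against farther introns (2.88 with scores), the X-box share against farther introns (-1.58 with the 5 kb limit, -1.70 with 1 peak per gene) and against promoters (6.11 with the relaxed pattern).

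Differences near 0 that changed sign without a call were, for the X-box share against promoters, -0.0632 (host starts), -0.773 (5 kb limit), -0.281 (highest scores), -0.182 (fold of at least 10), -0.234 (100 bp window) and -0.245 (1 peak per gene). Against farther introns it was 0.00200 (fold of at least 10). Against near-start intergenic peaks it was -0.156 (host starts), -1.55 (5 kb limit), -0.815 (all gene types), -0.282 (all transcripts of protein-coding genes), -2.92 (relaxed pattern), -0.459 (100 bp window) and -0.351 (1 peak per gene). The fold share against near-start intergenic peaks was 0.216 (midpoints), 1.56 (5 kb limit), 0.602 (all gene types), 0.0427 (all transcripts of protein-coding genes) and 1.68 (scores), and the reads share against them -0.624 (reads per kb).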

Other observations

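The X chromosome held 14 of the 3009 near-start intronic peaks (0.465%, Wilson interval 0.277% to 0.779%). It held 33 of the 4902 promoter peaks, 32 of the 5961 intronic peaks beyond 10 kb and 11 of the 1740 near-start intergenic peaks. A low X chromosome share was thus common to these groups. Of the peaks with no half-site and no X-box at the summit, those of Six4, Erg, Tbc1d16 and Arhgef10l reached fold enrichments of 44.0, 42.8, 40.0 and 39.3, and these 4 were named after their values were seen. Among the 105 near-start intronic peaks on repeated words, Pard3, which encodes a cell polarity protein, had 267 reads at 38.6-fold and no half-site, and Bcas3 had 217 reads at 38.1-fold with 1 half-site.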
